A study of Homo sapiens with 4 samples.

Results

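The genes described here are 34 splicing regulators, 14 SR or SR-related genes and 20 genes of the heterogeneous nuclear ribonucleoprotein (hnRNP) families. They were chosen by symbol from a list of splicing regulators, not by their values, out of 51714 Ensembl gene identifiers with counts. Earlier results of these data were known when the list was chosen. All 34 were found, and all 34 were among the 10674 genes that passed the filter on low counts. RNA was sequenced from Raji, an established human lymphoma line of the B cell lineage (Burkitt type, positive for Epstein-Barr virus). The R1810A group (n = 2 libraries) expressed an HA-tagged RPB1, the largest subunit of RNA polymerase II, in which alanine replaces a methylatable arginine of the C-terminal domain. The WT group (n = 2 libraries) expressed the same tagged subunit with that arginine in place. In both groups the introduced RPB1 resisted α-amanitin, which blocks the cells' own polymerase, and both were polyclonal batches selected with G418 and then kept in α-amanitin for 10 days, so that neither group is an unmodified Raji culture. The study asked whether gene expression is affected when methylation of this arginine is abolished. Ribosomal RNA was removed before sequencing. Whether replicate libraries were grown as separate cultures is not stated by the labels. The p-values therefore cover library-to-library spread alone, and that spread may be technical.

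SR proteins carry RNA recognition motifs and a domain rich in arginine and serine. They bind exonic enhancers and help to recruit the spliceosome, and their phosphorylation by SRPK and CLK kinases governs their place in the nucleus and their activity. HnRNPs are abundant nuclear RNA-binding proteins that coat nascent transcripts, and several of them block the use of exons that SR proteins promote. Many genes of both families hold ultraconserved "poison" exons or introns whose splicing sends the transcript to nonsense-mediated decay, by which the proteins limit their own level. In the GENCODE v29 annotation 27 of the 34 genes had at least 1 transcript labelled as a target of nonsense-mediated decay. The deposited counts are per gene and do not separate these isoforms.

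The summed gene counts were 2116444 and 2081636 reads in the R1810A libraries, against 2326036 and 2991959 in the WT libraries. The deposited total reads were 4017398 and 4128532 in R1810A, against 4097635 and 5405229 in WT. Gene counts were thus a smaller part of the total in both R1810A libraries than in both WT libraries. The gene for the endogenous and the introduced RPB1, POLR2A, had 1987 and 2170 reads in R1810A, against 1999 and 2567 in WT. Its gene-level count takes in both forms and cannot check the labels. The B cell markers, 19 genes, summed to 17205 and 17956 CPM (here reads scaled to the summed gene counts) in R1810A, against 19492 and 16258 CPM in WT. Among them IGHM had the most reads, 13550 and 12569 in R1810A, against 17814 and 20491 in WT. IGKC was nearly absent, with 4 and 6 reads in R1810A, against 4 and 4 reads in WT. Of 18 markers of other blood cells 10 had no read in any library, among them CD3D, CD2 and CD7, and the sum of all 18 was 247 and 161 CPM in R1810A, against 200 and 140 CPM in WT. Nearly all of that sum was CSF1R, a receptor of the myeloid lineage, with 508 and 324 reads in R1810A, against 445 and 394 reads in WT. Of 11 stromal and epithelial markers 8 had no read.

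Per unit of length, most of these genes were well above the typical gene. The deposited RPKM, which scales reads by gene length and total reads, had a median over the 4 libraries of 19.71 for the SR and SR-related genes and 14.44 for the hnRNP genes, against 6.56 for all genes tested. Of the 34 genes 6 lay above the 90th percentile of all genes tested and 7 below the 50th. HNRNPF, a protein that binds runs of guanines, had the highest level, with 74.8 and 72.0 RPKM in R1810A, against 70.7 and 66.9 RPKM in WT. HNRNPAB, an hnRNP of the A/B type, had 52.8 and 49.0 RPKM in R1810A, against 61.5 and 54.1 RPKM in WT. SRSF1, the founding SR protein, had 57.3 and 50.7 RPKM in R1810A, against 51.9 and 49.0 RPKM in WT. These genes, with HNRNPA2B1 and SRSF3, formed the top of the order, and their ranges over the 4 libraries touched or overlapped except that HNRNPF lay above all the others.

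SRSF3, the smallest classical SR protein, had 54.8 and 50.5 RPKM in R1810A, against 53.6 and 45.7 RPKM in WT. SRSF7, which has a zinc knuckle beside its RNA recognition motif, had 31.7 and 27.9 RPKM in R1810A, against 35.6 and 33.7 RPKM in WT. PTBP1, the polypyrimidine tract binding protein that represses many exons, had 46.4 and 42.1 RPKM in R1810A, against 45.6 and 46.7 RPKM in WT. PTBP1 and SRSF3 overlapped between the groups, whereas both R1810A values of SRSF7 were below both WT values on this scale. RPKM is scaled by the deposited total reads, which differ from the summed gene counts, adjusted by TMM, that were used for CPM below. On the CPM scale SRSF3 did not overlap, with 271 and 257 CPM in R1810A, against 247 and 211 CPM in WT.

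**Figure D1:**
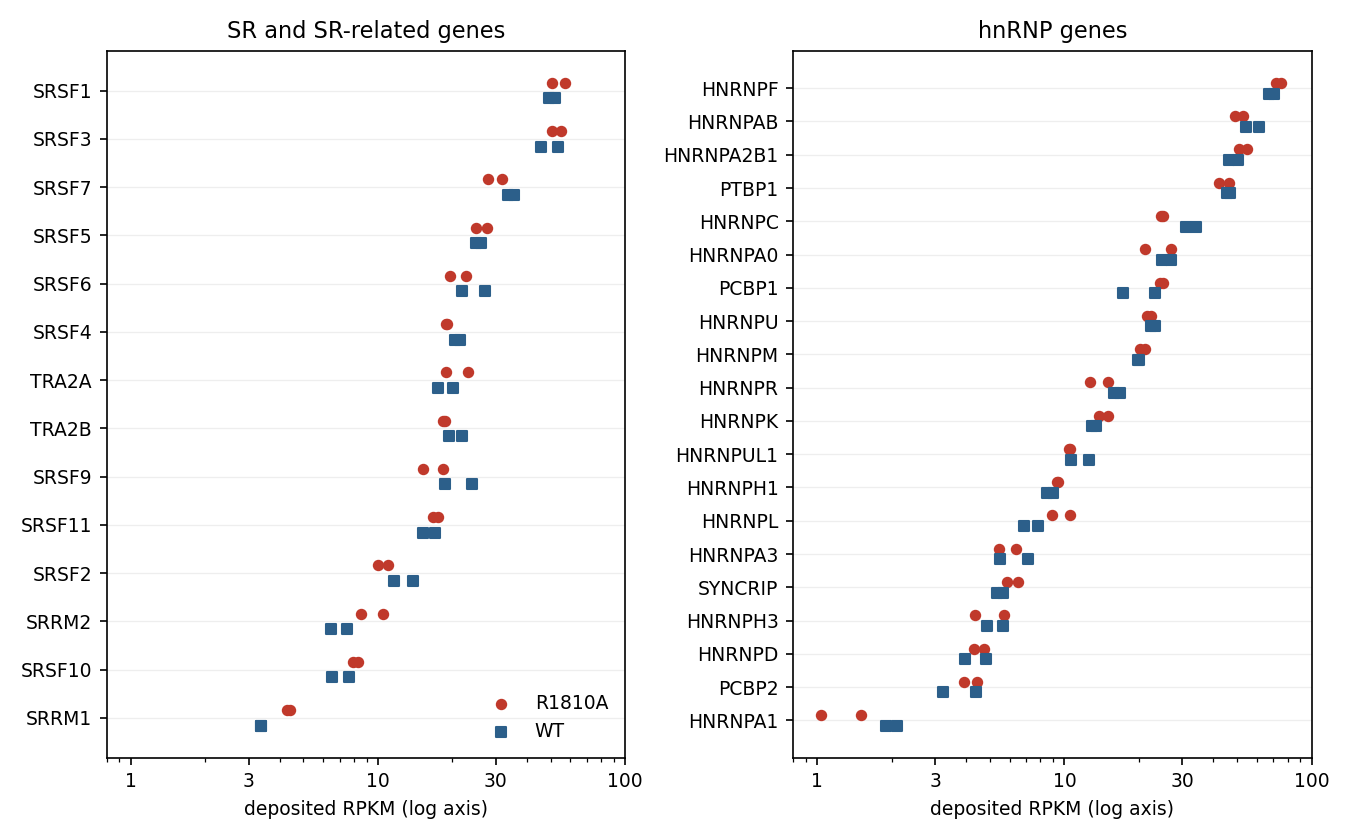
Deposited RPKM (log axis) of the 34 genes in each library, with SR and SR-related genes and hnRNP genes in separate panels; each point is 1 library, R1810A or WT. HNRNPF stood highest, SRRM1 was lowest among the SR and SR-related genes, and HNRNPA1 was lowest of all, with no library above 2.11 RPKM.

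The lowest SR-related gene was SRRM1, a coactivator that bridges SR proteins and the splicing machinery, with 4.28 and 4.43 RPKM in R1810A, against 3.35 and 3.38 RPKM in WT. The lowest of all was HNRNPA1 (ENSG00000135486), the best-known antagonist of SRSF1, with 8 and 12 reads in R1810A, against 15 and 22 reads in WT. That is 1.03 and 1.51 RPKM in R1810A, against 1.90 and 2.11 RPKM in WT, at the 13.5th percentile of the genes tested. HNRNPA1 is known as one of the most abundant hnRNPs of dividing cells, and it is also a gene with many near-identical copies elsewhere in the genome. GENCODE v29 (build GRCh38, not the hg19 build on which reads were counted) held 76 genes named as its copies. The deposited counts had 61 rows so named, which include the like gene HNRNPA1L2 and were not matched by identifier with the 76. Those 61 rows together held 19 and 15 reads in R1810A, against 17 and 20 reads in WT. Neither HNRNPA1 nor the copies with a row thus carried many reads, and reads at copies without a row could not be seen. How reads with several matching places were counted is not given in the sources used here, and its part in this low count was not tested.

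The extent of the sharing can be read from the coding sequence. Of the 1057 stretches of 60 bases in the HNRNPA1 coding sequence 835 (79.0%) were found exactly in at least 1 transcript of another gene.

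Sharing was measured in the same way, with stretches of 36 bases, for all 34 genes (the read length is not given in the sources used here, so 36 is a setting). The share of coding stretches found in another gene was 93.0% for HNRNPA3, 88.0% for HNRNPA1, 69.2% for HNRNPC and 54.5% for HNRNPK, the 4 genes above 50%. It was 38.3% for SRSF6, 36.5% for SYNCRIP, 31.6% for HNRNPL and 28.4% for SRRM1. For 22 genes it was under 10%, and for 10 of these it was 0%. The 4 genes above 50% had a median of 9.94 RPKM and the 22 genes under 10% a median of 20.1 RPKM. Across the 34 genes the share and the mean RPKM had a Spearman correlation of -0.39, a description over genes that share libraries and are not replicates. Counts are per whole gene, and over all annotated transcripts of a gene the share was lower. It was 24.7% for HNRNPA1, 19.3% for HNRNPA3, 15.8% for SRRM1, 14.5% for HNRNPK and 8.2% for HNRNPC. The values of these genes, and of others with shared stretches, are uncertain to the extent that reads were split, dropped or assigned to copies.

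**Figure D2:**
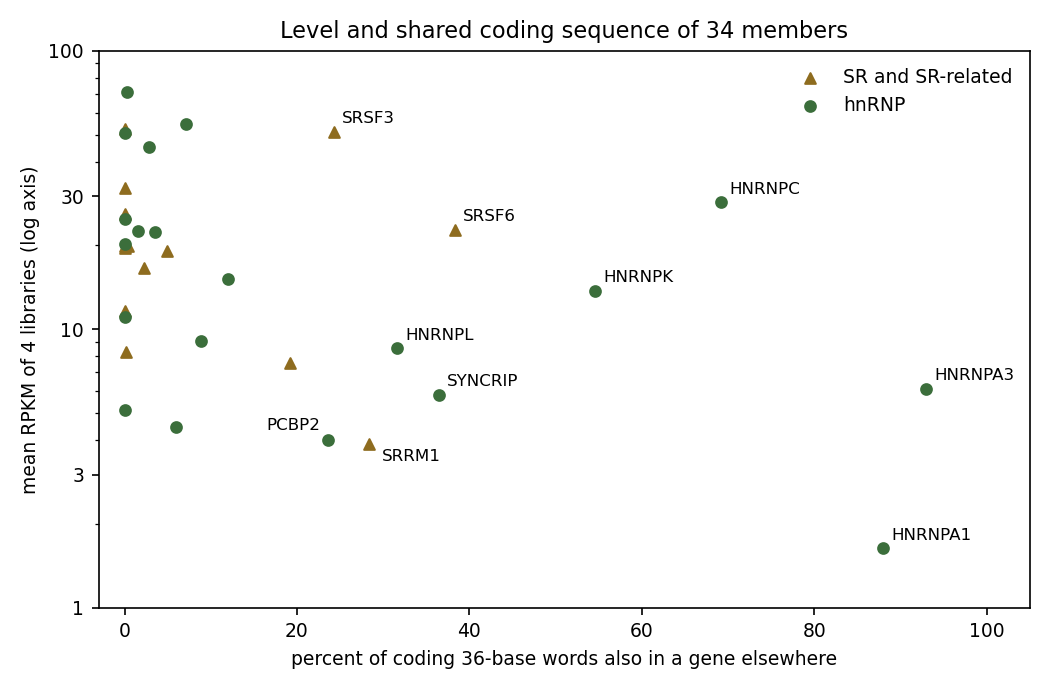
Mean deposited RPKM over the 4 libraries (log axis) against the percentage of each gene's coding stretches of 36 bases that occur in another gene; each point is 1 of the 34 genes. HNRNPA1 combined a share of 88.0% with the lowest level, while HNRNPC, at 69.2%, lay well above the median of the genes tested.

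In the comparison of R1810A with WT no SR, SR-related or hnRNP gene passed the threshold. Changes were small, between -0.54 and 0.58 on the log2 scale, and leaned towards higher values in R1810A. With edgeR's quasi-likelihood test over all genes, 0 of 34 had an adjusted p under 0.05, where 0.347% of all genes tested were called higher in R1810A and 0.00937% lower. DESeq2 and limma-voom also called 0 of the 34. At an unadjusted p under 0.05 edgeR found 7 of the 34 higher and 1 lower, where the shares of all genes were 4.94% and 3.06%. On the CPM scale both R1810A values were above both WT values for 16 genes, below them for 2 and overlapping for 16, where 19.8% and 19.5% of all genes did not overlap in these directions. In the deposited RPKM the same counts were 11 above, 10 below and 13 overlapping, where 9.76% of all genes lay above and 36.4% below. A positive log2 fold change from edgeR was found for 23 of the 34, against 49.4% of all genes. The median was 0.16 for the 34 genes and -0.0046 for all genes tested. Scaling to the deposited total reads brought the median of the 34 to 0.04, with the median of all genes at -0.13. The median of the 34 was 0.083 without WT replicate 1, and the 7 genes at an unadjusted p under 0.05 became 3 without R1810A replicate 1 and 0 without R1810A replicate 2.

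**Figure D3:**
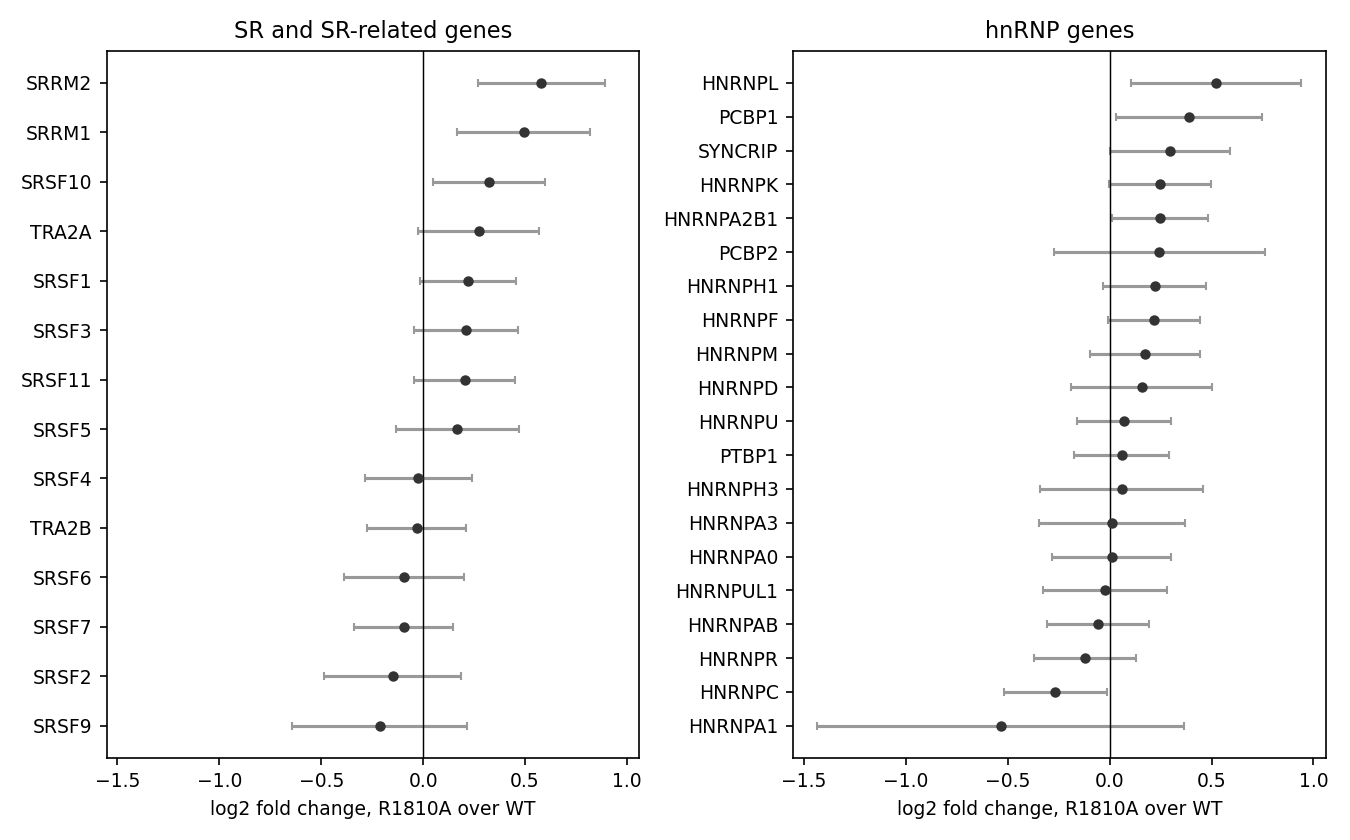
Log2 fold change of R1810A over WT for each of the 34 genes with its 95% interval, ordered by value within each panel; the vertical line at 0 marks equal levels. SRRM2 had the highest value, 0.58, and HNRNPA1 the lowest, -0.54, with the widest interval.

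The 10 SR proteins were split, 5 with positive and 5 with negative fold changes, a median of 0.07 and a range of -0.21 to 0.32. SRSF10, an SR protein that acts as a general repressor of splicing when dephosphorylated, had the smallest p of them. It had 157 and 170 CPM in R1810A, against 120 and 141 CPM in WT. The log2 fold change was 0.32 ± 0.125 (SE), with an edgeR adjusted p of 0.540. SRSF1 had 603 and 549 CPM in R1810A, against 508 and 481 CPM in WT, and a log2 fold change of 0.22 ± 0.107 (edgeR adjusted p = 0.647). For SRSF10, SRSF1 and SRSF3, and also for SRSF5 and SRSF11, both R1810A values lay above both WT values in CPM, and of these only SRSF10 did so in RPKM. SRSF5 had a log2 fold change of 0.17 and SRSF11 of 0.20. The others overlapped between the groups in CPM, with log2 fold changes of -0.15 for SRSF2, -0.02 for SRSF4, -0.09 for SRSF6, -0.10 for SRSF7 and -0.21 for SRSF9. In RPKM both R1810A values of SRSF2, SRSF4, SRSF7 and SRSF9 were below both WT values. Without WT replicate 1 the log2 fold change was 0.32 for SRSF3, 0.12 for SRSF11, -0.030 for SRSF2 and -0.037 for SRSF9, and without WT replicate 2 it was 0.096 for SRSF3, -0.28 for SRSF2 and -0.39 for SRSF9. For SRSF5 it was 0.25 without R1810A replicate 1 and 0.069 without R1810A replicate 2, for SRSF9 -0.34 without R1810A replicate 1 and -0.11 without R1810A replicate 2, and for SRSF7 -0.17 without R1810A replicate 1, -0.033 without R1810A replicate 2 and -0.061 without WT replicate 1. SRSF2 shares 1106 exonic bases with MFSD11 on the opposite strand, a gene with 22 and 26 reads in R1810A and 28 and 29 reads in WT. Whether the counting used strand is not given in the sources used here, so reads of such pairs may not be told apart.

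Of the 4 SR-related genes 3 had both R1810A values above both WT values in CPM, as did 19.8% of all genes. In RPKM SRRM1 and SRRM2 lay above, TRA2A overlapped and TRA2B lay below, where 9.76% of all genes lay above and 36.4% below. SRRM2 and SRRM1 had the smallest edgeR p-values of the 34 genes. SRRM2 (ENSG00000167978, chromosome 16), a large scaffold of nuclear speckles and a part of the active spliceosome, had 338 and 426 reads in R1810A, against 302 and 342 reads in WT. On the CPM scale that was 162 and 205 in R1810A, against 132 and 114 in WT, or 184 ± 30.3 CPM in R1810A and 123 ± 13.1 CPM in WT (SD, n = 2 each). The fold was 1.495 with a 95% interval of 1.21 to 1.86, and the edgeR adjusted p was 0.185. Over 12 alternative settings that p was lowest, 0.0511, without WT replicate 1, and highest, 0.992, when R1810A replicate 2 was left out. SRRM2 shares 190 exonic bases with ELOB on the opposite strand, which had 39 and 58 reads in R1810A and 75 and 65 reads in WT.

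SRRM1 (ENSG00000133226, chromosome 1) had 61.9 and 65.9 CPM in R1810A, against 45.1 and 45.6 CPM in WT. The replicates lay close together within each group and the groups were apart, with a log2 fold change of 0.49 ± 0.148 (SE) and an edgeR adjusted p of 0.339. The ratio of SRRM1 to SRRM2 in RPKM was 0.4999 and 0.421 in R1810A, against 0.447 and 0.525 in WT, values that overlap (exact two-sided permutation p = 0.667, 2 against 2 libraries). TRA2A and TRA2B are paralogues that bind GAA-rich enhancers. TRA2A had 23.1 and 18.8 RPKM in R1810A, against 17.5 and 20.1 RPKM in WT, which overlap on this scale and not in CPM. TRA2B had 18.3 and 18.7 RPKM in R1810A, against 19.3 and 21.8 RPKM in WT. The log2 fold change of TRA2A was 0.27, and 0.14 without R1810A replicate 1 or 0.18 without WT replicate 1, and that of TRA2B was -0.03. The ratio of TRA2A to TRA2B was 1.26 and 1.00 in R1810A, against 0.906 and 0.921 in WT. Both R1810A ratios were above both WT ratios, which in an exact two-sided permutation test gives p = 0.333, the smallest that 2 against 2 libraries allow.

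Among the 20 hnRNP genes 15 had positive and 5 negative fold changes, with a median of 0.11, which was 0.047 without WT replicate 1 and -0.0082 when scaled to the deposited totals. In the A/B and D group, which binds UAG-like or AU-rich motifs, 4 of 6 genes overlapped between the groups in CPM, of which HNRNPAB was lower without overlap in RPKM. HNRNPA2B1, the gene with the most reads among the 20, had 793 and 760 CPM in R1810A, against 681 and 628 CPM in WT. Its log2 fold change was 0.25 ± 0.107 (SE), with an edgeR adjusted p of 0.604. It shares 368 exonic bases with CBX3 on the opposite strand. HNRNPA1 was lower in both R1810A libraries, with 3.84 and 5.77 CPM, against 6.57 and 7.32 CPM in WT. With so few reads its fold of 0.690 had a 95% interval of 0.370 to 1.29 (edgeR adjusted p = 0.772), and with the reads of its copies added the log2 fold change was -0.11 in place of -0.54. HNRNPA0 and HNRNPA3 each had a log2 fold change of 0.01, HNRNPAB had -0.06 and HNRNPD 0.16. The value of HNRNPA1 was -0.27 without R1810A replicate 1 and -0.86 without R1810A replicate 2, and that of HNRNPD 0.025 without WT replicate 1 and 0.32 without WT replicate 2.

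The balance of SRSF1 and HNRNPA1 is a textbook example of opposed effects on splice site choice. SRSF1 had 55.5 and 33.6 RPKM for each RPKM of HNRNPA1 in R1810A, against 27.3 and 23.2 in WT. The groups did not overlap (exact two-sided permutation p = 0.333), and the ratio rests on HNRNPA1 counts of 8 to 22 reads. Set against HNRNPA2B1, which has many reads, the SRSF1 ratio was 1.05 and 1.00 in R1810A, against 1.03 and 1.06 in WT, and the groups overlapped (exact two-sided permutation p = 0.667).

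HNRNPC, which binds runs of uridines and blocks 3′ splice sites, was the one gene of the 34 that was lower at an unadjusted p under 0.05, a call lost in 3 of 4 fits that leave out a library (all but that without WT replicate 1). It had 154 and 162 CPM in R1810A, against 181 and 199 CPM in WT. The log2 fold change was -0.27 ± 0.114 (SE), with an edgeR adjusted p of 0.602. In RPKM the values were 24.7 and 25.05 in R1810A, against 30.9 and 34.1 in WT, so the groups did not overlap on either scale.

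The F/H proteins bind runs of guanines. HNRNPF and HNRNPH1 had both R1810A values above both WT values in CPM and in RPKM, each with a log2 fold change of 0.22. HNRNPF had 469 and 465 CPM in R1810A, against 413 and 391 CPM in WT (edgeR adjusted p = 0.638). HNRNPH1 had 9.39 and 9.31 RPKM in R1810A, against 8.97 and 8.51 RPKM in WT, and HNRNPH3, its smaller relative, 4.35 and 5.72 RPKM in R1810A, against 4.86 and 5.64 RPKM in WT. The HNRNPH1 to HNRNPH3 ratio overlapped between the groups, with 2.16 and 1.63 in R1810A, against 1.85 and 1.51 in WT (exact two-sided permutation p = 0.667).

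HNRNPK, PCBP1 and PCBP2 are KH-domain proteins that bind runs of cytosines. PCBP1, a gene without introns that arose from a PCBP2 transcript, had 82.0 and 86.6 CPM in R1810A, against 54.3 and 73.2 CPM in WT. Its log2 fold change was 0.39 ± 0.162 (SE), with an edgeR adjusted p of 0.585. The WT libraries differed more from each other than the R1810A libraries did, and the log2 fold change was 0.20 when WT replicate 1 was left out and 0.63 without WT replicate 2. PCBP2 had 3.93 and 4.43 RPKM in R1810A, against 3.23 and 4.38 RPKM in WT, and a log2 fold change of 0.24, which was 0.054 when WT replicate 1 was left out and 0.49 without WT replicate 2. Per RPKM of PCBP2 there were 6.20 and 5.63 of PCBP1 in R1810A, against 5.35 and 5.32 in WT (exact two-sided permutation p = 0.333). Both genes overlap another on the opposite strand, PCBP1 by 914 exonic bases with PCBP1-AS1 and PCBP2 by 1494 with MAP3K12, which had 26 and 30 reads in R1810A and 26 and 62 reads in WT.

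HNRNPL, which binds CA repeats, had 38.4 and 46.7 CPM in R1810A, against 27.6 and 31.3 CPM in WT. With 63 to 97 reads per library, its log2 fold change was 0.52 ± 0.190 (SE) and its edgeR adjusted p 0.5001. PTBP1 had a log2 fold change of 0.06 and its groups overlapped in CPM and in RPKM. SYNCRIP, also called hnRNP Q, had 92.6 and 105.4 CPM in R1810A, against 78.0 and 82.9 CPM in WT, with a log2 fold change of 0.30 ± 0.133 (SE, edgeR adjusted p = 0.621), and 0.20 without R1810A replicate 2. Its paralogue HNRNPR had a log2 fold change of -0.12, which was -0.23 without R1810A replicate 1 and -0.032 without R1810A replicate 2. Its groups overlapped in CPM, while in RPKM both R1810A values, 15.0 and 12.7, were below both WT values, 15.9 and 16.8. HNRNPM had a log2 fold change of 0.17.

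HNRNPU, the scaffold attachment factor, had 21.6 and 22.4 RPKM in R1810A, against 22.3 and 23.2 RPKM in WT. HNRNPUL1, a relative, had 10.4 and 10.5 RPKM in R1810A, against 12.6 and 10.6 RPKM in WT. Their ratio was 2.08 and 2.14 in R1810A, against 1.77 and 2.20 in WT (exact two-sided permutation p = 1). Of the 7 ratios between genes compared here none could reach a p under 0.333. HNRNPU shares 3502 exonic bases with COX20 on the opposite strand, which had 8 and 8 reads in R1810A and 6 and 9 reads in WT.

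The error sets how small a change could be seen. Outside HNRNPA1 the 33 genes had between 42 and 1887 reads in a library, and the 95% intervals of their folds lay between 0.640 and 1.92. The intervals of 8 genes left out a fold of 1. A missed threshold therefore does not show that a gene was at the same level in both groups.

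Summed, both families took a slightly larger share of the gene counts in R1810A, a difference that was not there over the deposited total reads. The SR and SR-related genes held 0.277% (95% Clopper-Pearson interval 0.270 to 0.284) and 0.278% (0.271 to 0.286) of the gene counts in R1810A. In WT they held 0.251% (0.245 to 0.258) and 0.255% (0.249 to 0.261). The intervals cover counting error only, and those of the groups did not overlap. The means were 0.278% ± 0.00107 in R1810A and 0.253% ± 0.00233 in WT (SD, n = 2 each), a ratio of 1.10. The hnRNP genes held 0.359% and 0.358% in R1810A, against 0.327% and 0.337% in WT, a ratio of 1.08. Both exact two-sided permutation tests gave p = 0.333, the smallest possible here. As a share of the deposited total reads, an alternative added after the data were seen, SR and SR-related genes held 0.146% and 0.140% in R1810A, against 0.143% and 0.141% in WT. The hnRNP genes held 0.189% and 0.181% in R1810A, against 0.186% and 0.186% in WT. On that scale the groups overlapped for both families (exact two-sided permutation p = 1 for each).

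The balance between the families was close to equal in the groups. There were 0.771 and 0.777 SR or SR-related reads for each hnRNP read in R1810A, against 0.770 and 0.757 in WT. The means were 0.774 ± 0.00428 in R1810A and 0.763 ± 0.0088 in WT (SD, n = 2 each). The groups did not overlap (exact two-sided permutation p = 0.333), but the nearest libraries, 0.771 in R1810A and 0.770 in WT, almost met. Without SRRM2 the R1810A mean minus the WT mean was -0.00362, against 0.0103 with it, so the direction turned.

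**Figure D4:**
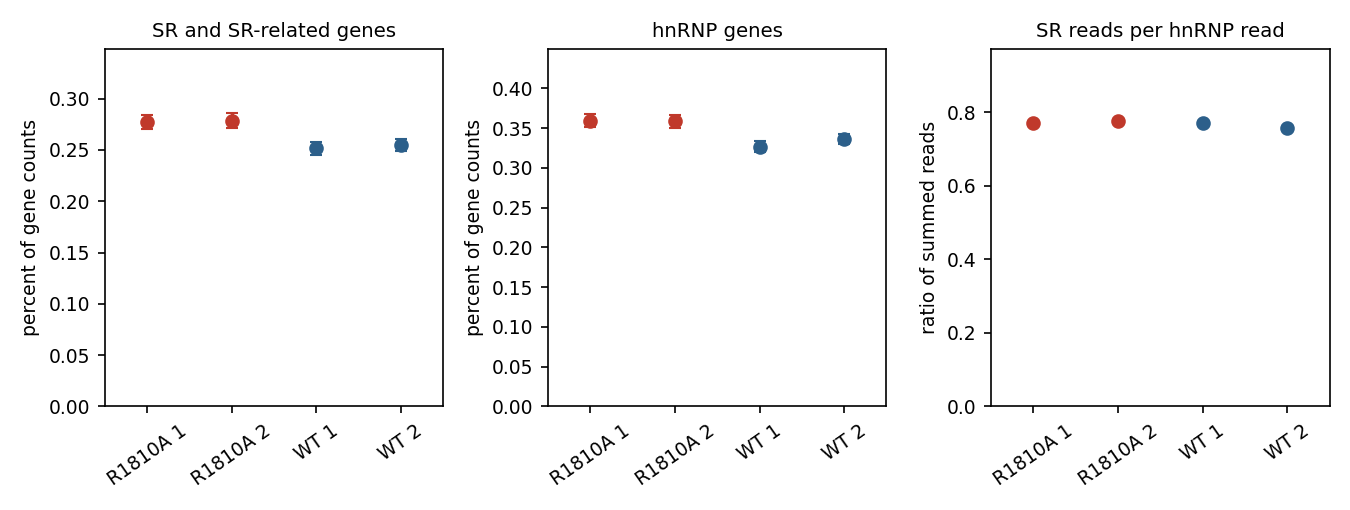
Percentage of all gene counts at the 14 SR and SR-related genes and at the 20 hnRNP genes, and SR or SR-related reads per hnRNP read, in each library; points are libraries, and bars on the percentages are 95% Clopper-Pearson intervals. In each percentage of gene counts the 2 R1810A points are higher than the 2 WT points.

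Reads at copies bear on several of these genes. The deposited counts had rows for 104 named copies of 17 of the 34 genes, of which 36 had a read in any library. The like genes HNRNPA1L2 and HNRNPCL1 were counted among these copies. The copy with the most reads was HNRNPKP4, an annotated pseudogene of HNRNPK on chromosome 3. It had 143 and 134 reads in R1810A, against 190 and 257 reads in WT. HNRNPK itself, on chromosome 9, had 336 and 319 reads in R1810A, against 297 and 405 reads in WT. Per unit of length the copy lay above its parent in every library. HNRNPKP4 had 25.7 and 23.4 RPKM in R1810A, against 33.5 and 34.3 RPKM in WT. HNRNPK had 14.9 and 13.8 RPKM in R1810A, against 12.9 and 13.4 RPKM in WT. For each HNRNPK read there were 0.426 and 0.420 at HNRNPKP4 in R1810A, against 0.640 and 0.635 in WT. The means were 0.423 ± 0.00391 in R1810A and 0.637 ± 0.00365 in WT (SD, n = 2 each), and the exact two-sided permutation p was 0.333, the smallest possible. This ratio was picked after its values were seen.

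HNRNPK and HNRNPKP4 were 96.1% identical over 1395 aligned positions of the HNRNPK coding sequence, with 43 substitutions and 12 gap positions. Their first 60 bases, from GENCODE v29, are shown to let the copy be told from its parent. Capitals mark the 3 substitutions, G4T, A18G and T33G, with the HNRNPK base first and positions counted from 1 at the A of the start codon.
HNRNPK: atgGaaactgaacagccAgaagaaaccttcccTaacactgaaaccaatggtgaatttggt
HNRNPKP4: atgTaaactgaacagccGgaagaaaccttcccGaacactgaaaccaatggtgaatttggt
Within these 60 bases, a stretch that covers none of the 3 substitutions is the same in both genes.

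HNRNPKP4 had a log2 fold change of -0.34 ± 0.135 (SE, edgeR adjusted p = 0.546) where HNRNPK had 0.25 ± 0.114 (SE, edgeR adjusted p = 0.634). With the reads of HNRNPK and its copies added together, the log2 fold change was 0.02 (edgeR adjusted p = 0.971). HNRNPL and its copy HNRNPLP1 showed a ratio that was likewise lower in both R1810A libraries. There were 0.388 and 0.299 HNRNPLP1 reads for each HNRNPL read in R1810A, against 0.571 and 0.745 in WT, and the log2 fold change of HNRNPL with its copies was 0.21 in place of 0.52. The other 3 copies with 20 or more reads in every library showed no such lower ratio. For SRSF6P2 and HNRNPRP1 both R1810A ratios were above both WT ratios, barely so for HNRNPRP1, and for SRRM1P3 the groups overlapped. SRRM1P3 had 0.186 and 0.190 reads per SRRM1 read in R1810A, against 0.194 and 0.168 in WT, and SRRM1 with its copies had a log2 fold change of 0.50. HNRNPRP1 had 0.1603 and 0.186 reads per HNRNPR read in R1810A, against 0.1602 and 0.149 in WT. SRSF6P2 had 0.128 and 0.0991 reads per SRSF6 read in R1810A, against 0.0828 and 0.0547 in WT. HNRNPC had -0.26 with its copies, close to its own value. Adding copies was an alternative chosen after the data were seen, and the part of the read assignment in the HNRNPK and HNRNPL values was not tested.

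**Figure D5:**
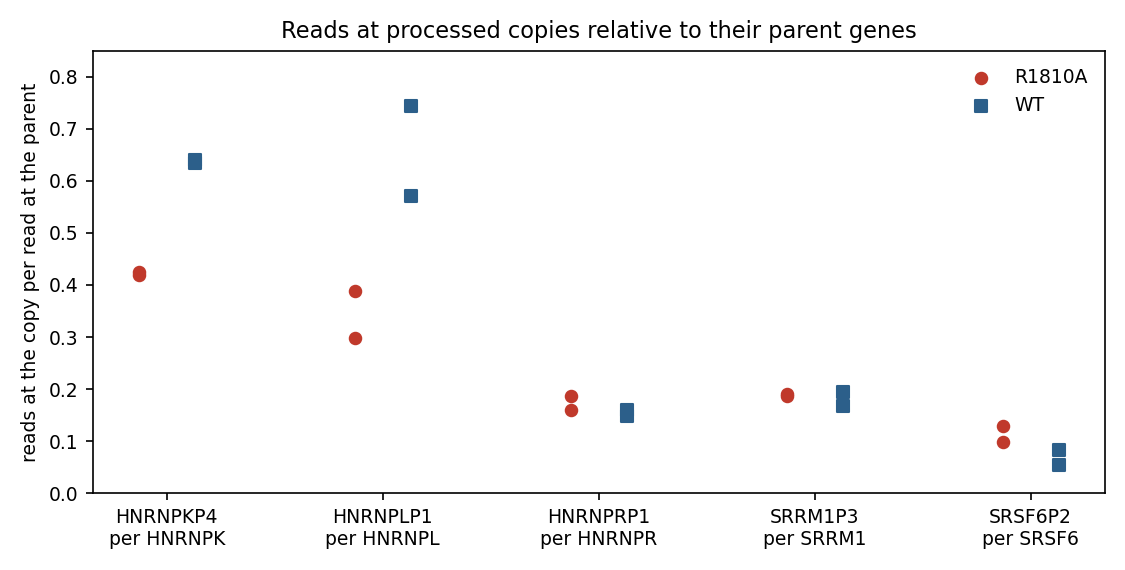
Reads at a copy per read at its parent gene in each library for 5 copies, with R1810A left of WT; each point is 1 library. For HNRNPKP4 and HNRNPLP1 both R1810A ratios were below both WT ratios. For SRSF6P2 and HNRNPRP1 both were above, barely so for HNRNPRP1, and for SRRM1P3 the groups overlapped.

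Other genes of the pathway were taken from 5 lists, and no gene of any of them passed the threshold by edgeR, DESeq2 or limma-voom. For the counts at an edgeR unadjusted p under 0.05 given below, the shares of all genes were 4.94% higher and 3.06% lower. Of 26 further SR and hnRNP family genes 18 were tested, with 2 higher and 0 lower at an unadjusted p under 0.05 and a median log2 fold change of 0.13. SON, like SRRM2 a core scaffold of nuclear speckles, had 268 and 298 CPM in R1810A, against 216 and 179 CPM in WT. Its log2 fold change was 0.52 ± 0.124 (SE), with an edgeR adjusted p of 0.167. PTBP2, the neuronal paralogue of PTBP1, had 67.6 and 57.7 CPM in R1810A, against 42.1 and 43.3 CPM in WT, with a log2 fold change of 0.55 ± 0.157 (SE, edgeR adjusted p = 0.298). PTBP1 represses PTBP2 through an exon whose loss sends the transcript to decay, and PTBP1 had a log2 fold change of 0.06. A link between these genes was not tested here.

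Of 18 kinases, phosphatases and importers of SR proteins 17 were tested, with 1 higher and 0 lower at an unadjusted p under 0.05 and a median of 0.02. CLK1, a kinase that phosphorylates SR proteins in the nucleus, had 38 and 34 reads in R1810A, against 24 and 32 reads in WT, and a log2 fold change of 0.70 ± 0.265 (SE, edgeR adjusted p = 0.523). TNPO1, the importer of several hnRNPs, had 0.20 (edgeR adjusted p = 0.702), which was 0.064 without R1810A replicate 1 and 0.31 without R1810A replicate 2. Among 51 other splicing regulators 48 were tested, with 6 higher and 1 lower at an unadjusted p under 0.05 and a median of 0.08. EWSR1, an RNA-binding protein of the FET family, had a log2 fold change of 0.46 (edgeR adjusted p = 0.457), which was 0.28 when WT replicate 1 was left out and 0.69 without WT replicate 2. KHDRBS1, known as Sam68, had 0.32 (edgeR adjusted p = 0.546).

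Of 16 nonsense-mediated decay factors 15 were tested, with 0 higher and 1 lower at an unadjusted p under 0.05 and a median log2 fold change of 0.01. NBAS, whose unadjusted p was above 0.05, had -0.36 (edgeR adjusted p = 0.656), and -0.23 without R1810A replicate 2 or without WT replicate 1. The 10 arginine methyltransferases and their partners, which modify many hnRNPs, had 1 higher and 1 lower at an unadjusted p under 0.05 and a median of -0.11. PRMT6 had a log2 fold change of 0.33 (edgeR adjusted p = 0.567), and WDR77, the partner of PRMT5, had -0.41 (edgeR adjusted p = 0.594), and -0.15 without WT replicate 2.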

How the data were processed

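Per the file headers, the deposited files hold the authors' raw read counts per gene, RPKM, gene length and a total read number. The submitters' processing notes name Bowtie and hg19. Bowtie's version, the counting program, the annotation and the use of strand are not stated there or in the labels. The deposited RPKM equalled the count divided by length and total reads (all rows, relative tolerance 0.0001). RPKM was used for levels, for overlap between the groups and for ratios between genes. Of these only the ratios of gene pairs were tested, by exact permutation. Of 51714 identifiers 40926 matched a symbol in a gene name table or GENCODE v29, and v29 also gave coding sequences and overlaps. Counts were tested with edgeR 4.0.16 (R 4.3.3): filterByExpr, TMM, quasi-likelihood F-test, Benjamini-Hochberg adjustment over 10674 genes, threshold 0.05. Standard errors and 95% intervals were derived from that test. CPM used TMM library sizes. Code was tested on simulated data. DESeq2 1.42.0 and limma-voom 3.58.1 were alternatives.

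Members and lists were chosen with earlier results of these data known. Values per library are given for the 8 members with the smallest p, the 3 SR and 5 hnRNP genes of highest RPKM, the lowest of each, and fixed pairs; for each list of other genes, the 2 smallest p. Some items these rules select are not reported here. Replicates differed by more than sampling noise (chi-square per degree of freedom 2.11 in R1810A and 4.06 in WT). Same-numbered libraries did not deviate together (correlation -0.040).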

Additional observations from a re-analysis of the deposited data

How the results depend on the processing

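No member was called by any alternative, and the direction of 24 members was kept throughout. Of 408 member values 387 kept their direction and side of the threshold and 21 reversed, in 10 members with main log2 fold changes of at most 0.092 in size. With deposited total reads the reversed log2 fold changes were -0.11 for HNRNPA0, -0.11 for HNRNPA3, -0.065 for HNRNPH3, -0.062 for PTBP1 and -0.051 for HNRNPU, and without the filter -0.0020 for HNRNPA0 and -0.00051 for HNRNPA3. Leaving out 1 library at a time gave -0.060 to 0.012 for SRSF4, -0.25 to 0.064 for SRSF6, -0.12 to 0.058 for TRA2B, -0.15 to 0.15 for HNRNPA0, -0.16 to 0.22 for HNRNPA3, -0.15 to 0.031 for HNRNPAB, -0.18 to 0.26 for HNRNPH3, 0.0082 to 0.10 for PTBP1, 0.015 to 0.12 for HNRNPU and -0.15 to 0.10 for HNRNPUL1. The members' median (0.16) was 0.040 with total reads, 0.098 with copies added and 0.083 to 0.18 with 1 library left out. For the 14 SR and SR-related genes (0.19) it was 0.063 with total reads and 0.11 to 0.14 with 1 left out. For hnRNP genes (0.11) it was -0.0082, 0.065 with copies added, and 0.047 to 0.18.

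At an unadjusted p under 0.05, 7 members were higher and 1 lower, against 2 higher with total reads, 1 higher and 0 lower with DESeq2, 8 higher with limma-voom, and 0 (without R1810A replicate 2) to 8 higher and 0 to 1 lower with 1 library left out. Over all genes 37 were called higher and 1 lower. The counts higher were 78 without the filter, 24 with limma-voom, 73 with the replicate block, and 2 (without WT replicate 2) to 113 (without WT replicate 1), with 78 without R1810A replicate 2. The counts lower were 5 with total reads, 7 without the filter, 2 with DESeq2, 4 with robust dispersion, 4 with the replicate block, and 0 to 40 with 1 left out. With the replicate block the members' median was 0.17. Further family genes called higher numbered 0 to 1 with 1 library left out (SON without WT replicate 1). The R1810A minus WT difference in SR reads per hnRNP read (0.0103) was -0.00151 on summed RPKM, -0.000974 without HNRNPA1 and HNRNPC and -0.00362 without SRRM2. The difference in the hnRNP share of counts, 0.0273 percentage points, was -0.00086 as a share of deposited total reads. The scales differ by the part of the total reads counted at genes. Why that part was lower in R1810A was not tested. HNRNPA1 and PCBP2, the genes with the fewest reads, had the largest standard errors, 0.41 and 0.24 on the log2 scale. SRSF9 and HNRNPL followed, each with 0.19.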
